A study of Rattus norvegicus with 10 samples.

Results

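Expression of 10 genes of cardiac fatty acid handling was followed in fetal rat hearts: Lpl, Cd36, Slc27a1, Fabp3, Fabp4, Plin2, Plin5, Pnpla2, Acot1 and Acot4. They are 10 of the 18025 genes listed in the deposited values and were picked by symbol for their part in lipid uptake, binding, droplets and acyl-CoA hydrolysis, with results of the same comparison known. Their values in the 2 groups are therefore given as a description, without a test. Messenger RNA was sequenced from hearts of wild-type Sprague-Dawley fetuses at embryonic day 19.5, in 5 libraries of the control group (CON) and 5 of the hyperglycemia group (HG). The dams came from rats of 3 months of age. HG dams received streptozotocin (STZ), a toxin of the insulin-producing cells of the pancreas, by intraperitoneal injection in citric acid buffer on 3 consecutive days, and CON dams received the buffer alone. Diabetes of the HG dams was defined as a non-fasting blood glucose above 16 mM at 7 days after injection. One account of the study assigns the females to groups before mating and another after it. The dam, litter and sex behind each library were not given in the sources used here, so that p-values measure only the spread between these libraries, which may be technical. One passage of the methods speaks of pooled RNA and a legend of isolated cardiomyocytes, but each library has its own values in the deposited table.

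The heart takes up fatty acids along a short chain of proteins. Lipoprotein lipase frees them from circulating triglyceride at the capillary wall, CD36 and fatty acid transport proteins bring them into the cardiomyocyte, and fatty acid binding proteins carry them through the cytosol. Inside the cell they are activated to acyl-CoA and oxidized or stored as triglyceride in lipid droplets, whose coat proteins, the perilipins, govern access of lipases. Acyl-CoA thioesterases reverse the activation by splitting acyl-CoA into free fatty acid and coenzyme A. The fetal heart relies mostly on glucose and lactate and shifts to fatty acids after birth, and many genes of this chain are known targets of the nuclear receptor PPARα.

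The values are FPKM, in which the authors scaled read numbers to gene length and to library size. Reads on genes numbered 17639895 to 18240006 in the CON libraries and 16672876 to 19109844 in the HG libraries. Differences are given as log2 fold changes (log2FC) of HG minus CON on the scale of log2(FPKM + 0.1), on which changes of genes with low FPKM are understated, with the standard error (SE) from limma fitted over the 14542 genes that averaged 0.1 FPKM or more. The median log2FC of all these genes was 0.09, or 0.01 and 0.02 under 2 other scalings of the libraries, median-of-ratios factors and quantile normalization. All 10 members passed the filter, Acot4 only through the HG libraries, since its CON mean was 0.0548 FPKM and its HG mean 0.223 FPKM.

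In the HG hearts, the lipase gene Lpl and the binding protein genes Fabp3 and Fabp4 were lower and the thioesterase genes Acot1 and Acot4 higher. Lpl was at 0.504 of the CON mean in HG, Fabp4 was at 0.623 and Fabp3 at 0.726 of CON, and Acot1 was at 2.12 times and Acot4 at 4.06 times CON. In the fit over all genes, 6 of the 10 members had an adjusted p under 0.05 (background 40.1% of all genes tested), of which 4 were lower in HG (background 11.8%) and 2 higher (background 28.4%). In 5 of the 10, every HG library lay on one side of every CON library (background 27.4%), 3 of them lower (background 8.12%) and 2 higher in HG (background 19.3%). Acot1 and Acot4 also had a log2FC above 1, the threshold of the study for a differentially expressed gene (DEG; background for higher genes 0.866%). Acot4, which is in each of these counts of higher members, rests on 2 to 3 reads in each CON library. As the members were chosen with this contrast known, nothing is read from these counts. Among all genes with an adjusted p under 0.05, 70.7% were higher in HG, a share that was 47.4% under median-of-ratios scaling and 53.0% under quantile normalization. The median log2FC of the 10 members was -0.37.

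**Figure D1:**
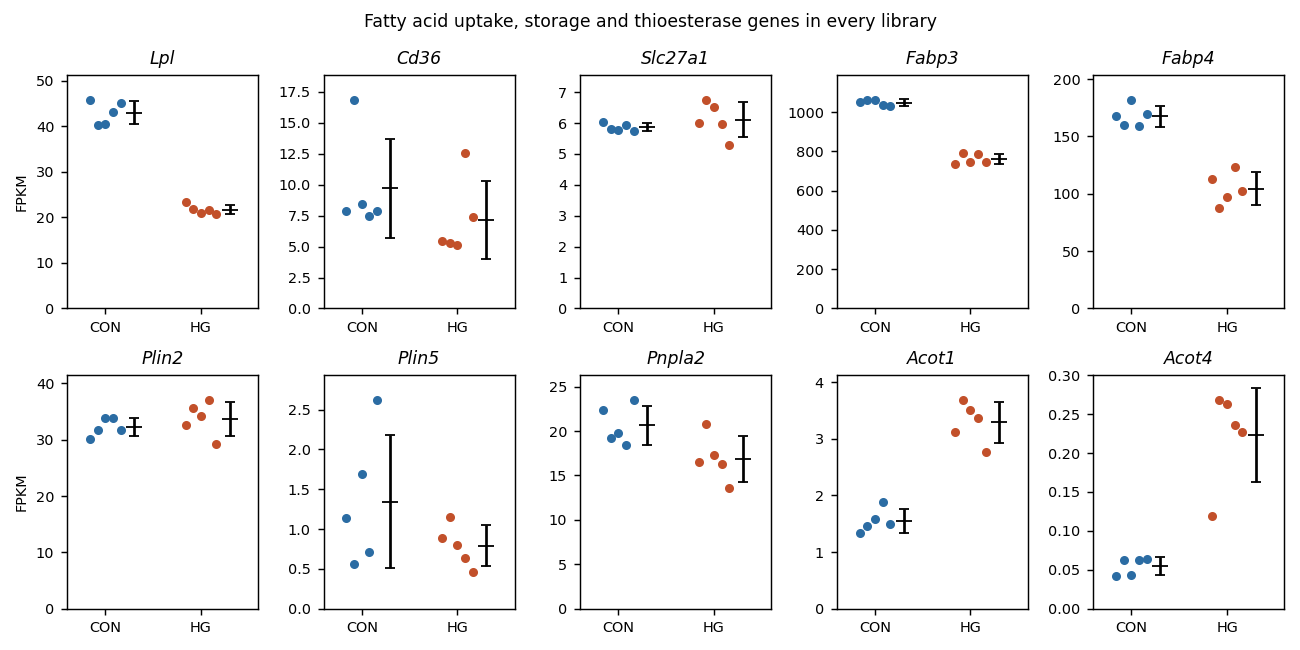
FPKM of the 10 genes in each of 5 CON libraries (blue) and 5 HG libraries (orange), with y axes from 0 and the mean and SD of each group in black. Lpl, Fabp3, Fabp4, Acot1 and Acot4 show no overlap of the groups, and 1 CON library of Cd36 stands at 16.9 FPKM above the others.

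Lpl (NCBI Gene 24539), the lipase itself, stood at 45.9, 40.4, 40.6, 43.2 and 45.2 FPKM in CON replicates 1 to 5 and at 23.4, 21.9, 20.9, 21.6 and 20.7 FPKM in HG replicates 1 to 5. The HG libraries lay close together and far below the lowest CON library. The means were 43.1 ± 2.55 and 21.7 ± 1.06 FPKM (SD, n = 5 libraries each), with a log2FC of -0.98 (SE 0.049) on 1047 to 2520 reads per library. This was just short of the DEG threshold, and the log2FC was -1.07 under median-of-ratios scaling and -1.05 under quantile normalization. In bulk tissue, fewer cells of a type and less RNA per cell cannot be told apart.

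The genes that work with Lpl were followed in a list of 16 genes. Of the 10 tested, 4 rose (background 28.4%) and 4 fell (background 11.8%). Gpihbp1 (NCBI Gene 300027), which anchors the lipase on the capillary endothelium, fell from 3.44, 3.67, 4.09, 3.12 and 3.63 FPKM in CON to 1.68, 0.860, 1.29, 0.895 and 1.20 FPKM in HG. The groups did not overlap, and the ratio of the means was 0.330 (log2FC -1.55, SE 0.16, adjusted p = 1.83e-05, limma). Angptl4 (362850), a secreted inhibitor of the lipase, rose from 0.485, 0.696, 0.443, 0.429 and 0.469 FPKM in CON to 2.25, 2.39, 2.45, 2.32 and 2.17 FPKM in HG. It was 4.59 times higher in HG (log2FC 2.01, SE 0.12, adjusted p = 6.36e-07, limma), from 16 to 26 reads in each CON library and 74 to 90 in each HG library. Gpihbp1 and Angptl4 were the 2 DEGs of the list.

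Others of the list moved less. Lmf1, needed for the folding of the lipase, fell with a log2FC of -0.30 (adjusted p = 0.00896, limma). Vldlr, a lipoprotein receptor that binds triglyceride-rich particles beside the lipase, fell from 11.3 ± 0.433 to 8.71 ± 0.549 FPKM (SD, n = 5 each; log2FC -0.38, adjusted p = 0.000186). Apoc1, an apolipoprotein that restrains the lipase, rose with 0.90 (adjusted p = 0.000464) from a low level of 1.10 ± 0.171 FPKM.

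**Figure D2:**
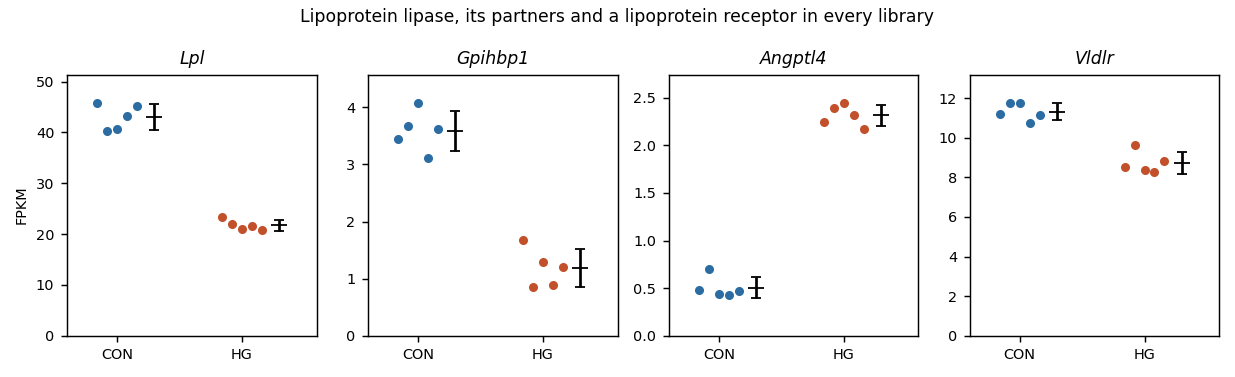
FPKM of Lpl, its anchor Gpihbp1, its inhibitor Angptl4 and the receptor Vldlr in each CON (blue) and HG (orange) library, with y axes from 0 and the mean and SD in black. The groups overlap in none of the 4 genes, and Angptl4 is the one that is higher in HG.

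Cd36 (NCBI Gene 29184) encodes the fatty acid translocase of the cell surface and was the less steady of the 2 uptake genes. Its CON values were 7.85, 16.9, 8.45, 7.46 and 7.84 FPKM and its HG values 5.48, 5.26, 5.11, 12.6 and 7.40 FPKM. Of each group, 1 library stood high, CON replicate 2 and HG replicate 4, and the groups overlapped. The log2FC was -0.44 (SE 0.27), -0.23 without CON replicate 2 and -0.67 without HG replicate 4. In the fit without HG replicate 4, Cd36 joined the genes with an adjusted p under 0.05. The coefficient of variation of Cd36 was 41.5% in CON and 44.2% in HG, while counting error alone at 274 to 952 reads would give about 4.30% and 5.04%. Over all genes tested the median coefficient of variation was 8.05% in CON and 8.75% in HG.

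Slc27a1 (94172), fatty acid transport protein 1, was close to equal in both groups. It ranged from 5.73 to 6.05 FPKM in CON and from 5.29 to 6.76 FPKM in HG, with a log2FC of 0.05 (SE 0.067) that turned to -0.03 under median-of-ratios scaling and -0.04 under quantile normalization. Its relatives differed in direction. Slc27a3 rose (log2FC 0.49, adjusted p = 0.00106, limma) and Slc27a4, the most abundant of the 4 listed transport proteins with 53.4 ± 0.816% of their summed FPKM in CON, fell (-0.18, adjusted p = 0.00724). Slc27a6, a transport protein known from the adult heart, was barely present, at 0.0787 ± 0.0489 FPKM in CON hearts and 0.142 ± 0.0646 FPKM in HG hearts (log2FC 0.44, SE 0.27, adjusted p = 0.213).

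Fabp3 (79131), the heart-type fatty acid binding protein, was by far the most abundant member. It read 1051, 1064, 1064, 1035 and 1031 FPKM in CON and 736, 793, 744, 788 and 745 FPKM in HG. The groups were narrow and did not overlap, with means of 1049 ± 15.7 and 761 ± 27.0 FPKM (SD, n = 5 libraries each). The log2FC was -0.46 (SE 0.035), and ranged from -0.55 with median-of-ratios factors to -0.39 after quantile normalization.

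Fabp4 (79451), the binding protein of adipocytes and of capillary endothelium, read 168, 160.3, 182, 159 and 169 FPKM in CON and 113, 87.3, 96.9, 124 and 102 FPKM in HG. All HG libraries were below all CON libraries, and they were more widely spread (coefficient of variation 13.5% against 5.43%). The log2FC was -0.69 (SE 0.079).

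The third abundant binding protein, Fabp5, went the other way. It rose from 219 ± 11.2 to 264 ± 12.1 FPKM (SD, n = 5 each; log2FC 0.27, SE 0.044, adjusted p = 0.000591, limma). Fabp3, Fabp4 and Fabp5 together summed to 1436 ± 27.1 FPKM in CON libraries and 1129 ± 30.8 FPKM in HG libraries. Within this sum the share of Fabp5 was 15.3 ± 0.619% in CON and 23.3 ± 1.08% in HG, and that of Fabp3 73.1 ± 0.539% and 67.4 ± 1.25%. In the list of transport and activation genes without the members, 12 were tested, 3 rose (background 28.4%) and 3 fell (background 11.8%). Among the ligases that turn fatty acids into acyl-CoA, Acsl1, the main cardiac form, fell from 62.3 ± 1.66 to 40.4 ± 2.36 FPKM (log2FC -0.62, adjusted p = 1.20e-06), and Acsl4, which prefers arachidonic acid, rose from 4.48 ± 0.266 to 6.55 ± 0.424 FPKM (0.54, adjusted p = 6.33e-05). Got2, a mitochondrial aminotransferase also described as a fatty acid binding protein of the plasma membrane, fell with -0.28 (adjusted p = 0.000295).

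**Figure D3:**
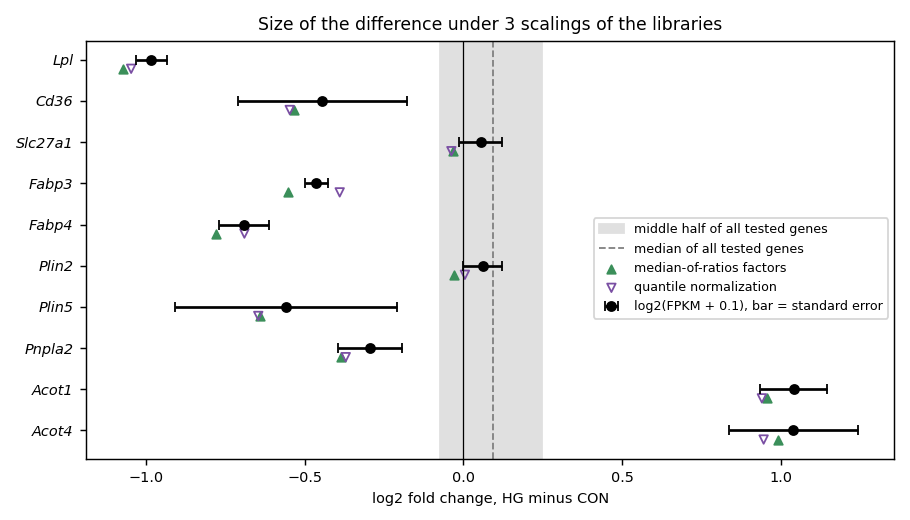
Log2FC of HG minus CON of the 10 genes with its standard error (black), and the same under median-of-ratios scaling (green triangles) and quantile normalization (open triangles), beside the median (dashed) and the range from the lower to the upper quartile (grey) of all tested genes. Lpl lies near -1 and Acot1 and Acot4 near 1 under each scaling, while Slc27a1 and Plin2 lie within the grey band.

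Plin2 (298199), the perilipin that coats droplets in most tissues, was near the CON level. It ranged from 30.1 to 33.9 FPKM in CON and from 29.2 to 37.1 FPKM in HG, so that the groups overlapped. Its log2FC was 0.06 (SE 0.061), and -0.03 with median-of-ratios factors. Plin5 (501283), which tethers droplets to mitochondria in oxidative muscle, read 1.14, 0.565, 1.69, 0.708 and 2.62 FPKM in CON and 0.890, 1.15, 0.802, 0.642 and 0.464 FPKM in HG. The CON libraries were spread over and beyond the HG range, and the groups overlapped. The log2FC of -0.56 had an SE of 0.35 and was -0.28 without CON replicate 5 and -0.79 without CON replicate 2. Plin5 rested on 20 to 90 reads in each CON library and 15 to 41 in each HG library, and its coefficient of variation in CON was 62.3%, against 14.6% from counting error.

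Of the droplet protein list without the members, 12 genes were tested, 1 rose (background 28.4%) and 3 fell (background 11.8%). Plin3 averaged 26.1 ± 0.688 FPKM in CON libraries and 26.2 ± 2.20 FPKM in HG libraries (log2FC 0.00, adjusted p = 0.985, limma). Plin4 fell from 0.611 ± 0.159 to 0.324 ± 0.135 FPKM (log2FC -0.78, adjusted p = 0.0236), a call that was lost without CON replicate 3, CON replicate 5 or HG replicate 3 (adjusted p = 0.0588, 0.0546 and 0.0527). Cidea, a protein of droplet fusion, and Fitm2, which partitions triglyceride into droplets, fell with -0.57 (adjusted p = 0.00120) and -0.41 (adjusted p = 0.00260). Hilpda, a hypoxia-inducible inhibitor of droplet lipolysis, rose from 2.16 ± 0.306 to 3.30 ± 0.210 FPKM (0.60, adjusted p = 0.000645).

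Pnpla2 (361676) encodes adipose triglyceride lipase, the enzyme of the first cut of stored triglyceride. It read 22.3, 19.2, 19.7, 18.5 and 23.5 FPKM in CON and 16.5, 20.8, 17.3, 16.3 and 13.6 FPKM in HG. One HG library, replicate 2, lay within the CON range, and the rest were below it. The means were 20.6 ± 2.16 and 16.9 ± 2.59 FPKM (SD, n = 5 libraries each), with a log2FC of -0.30 (SE 0.10). Pnpla2 was no longer among the genes with an adjusted p under 0.05 without CON replicate 1, CON replicate 5, or any of HG replicates 1, 3, 4 and 5.

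The lipases of the next cuts were lower too. Lipe, hormone-sensitive lipase, fell from 3.27 ± 0.293 to 2.46 ± 0.0930 FPKM (log2FC -0.39, adjusted p = 0.00169, limma) and Mgll, monoglyceride lipase, fell with -0.26 (adjusted p = 0.00244). The activator of Pnpla2, Abhd5, had a log2FC of -0.15 (adjusted p = 0.0611) and its inhibitor G0s2 one of 0.02 (SE 0.096, adjusted p = 0.881). With median-of-ratios factors Abhd5 had -0.24 (adjusted p = 0.00592). Of the 8 lipolysis genes tested outside the members, 2 fell (background 11.8%) and 1 rose (background 28.4%). The riser was Abhd6, another monoglyceride lipase (0.22, adjusted p = 0.0313, and 0.183 with median-of-ratios factors). Triglyceride synthesis had 15 tested genes, of which 4 rose (background 28.4%) and 5 fell (background 11.8%). With median-of-ratios factors, however, 0 rose and 7 fell. Agpat2, an acyltransferase of phosphatidic acid synthesis, fell with -0.33 (adjusted p = 0.00101), and its relative Agpat1 with -0.20 (adjusted p = 0.0116). Lpin3, Lpin2 and Agpat4 rose with 0.39, 0.24 and 0.14 (adjusted p = 0.0498, 0.030 and 0.0428), but their adjusted p was 0.110, 0.158 and 0.497 with median-of-ratios factors, and these calls were also lost without single libraries of either group. Of the enzymes of the last step, Dgat1 had 0.11 (adjusted p = 0.271) and Dgat2 fell with -0.22 (adjusted p = 0.0432), a call that was lost without any of CON replicates 1 to 4 or HG replicates 1, 3 and 5, with an adjusted p of up to 0.10.

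**Figure D4:**
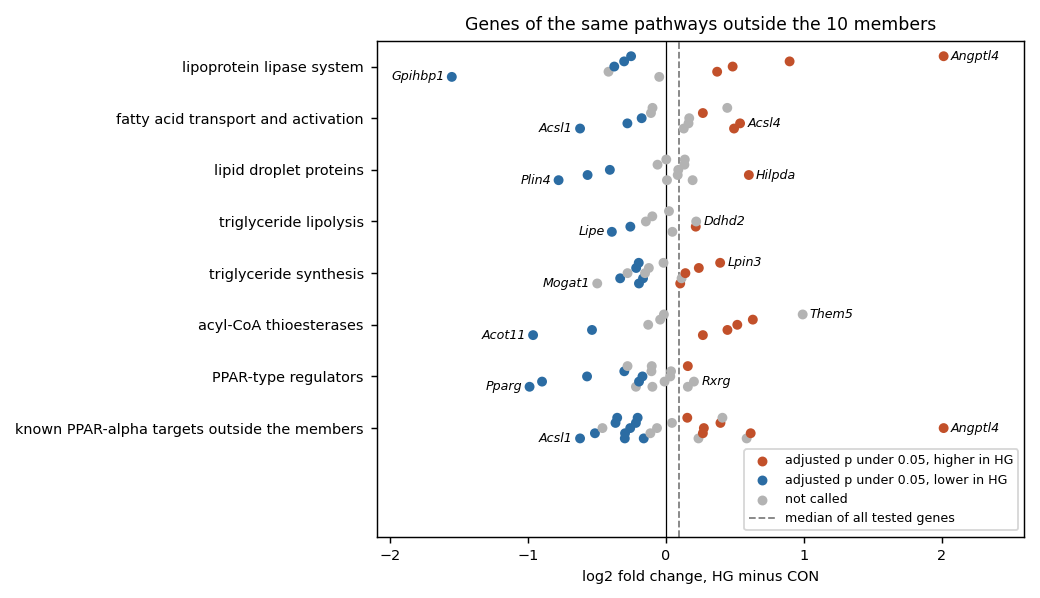
Log2FC of HG minus CON of the tested genes of 8 pathway lists without the 10 members, 1 point per gene, in orange where higher and blue where lower with an adjusted p under 0.05. Gpihbp1 and Angptl4 lie at the 2 ends, and the lists hold genes of both directions.

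The thioesterases Acot1 and Acot4 were the members that were higher in HG. Acot1 (50559), the cytosolic form for long-chain acyl-CoA, read 1.33, 1.46, 1.58, 1.88 and 1.50 FPKM in CON and 3.11, 3.69, 3.50, 3.37 and 2.77 FPKM in HG. The lowest HG library was above the highest CON library, and the log2FC was 1.04 (SE 0.11) from 38 to 54 reads in each CON library and 73 to 107 in each HG library. It was 0.96 under median-of-ratios scaling and 0.94 under quantile normalization, below the DEG threshold.

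Acot4 (681337), the peroxisomal form for succinyl-CoA and other dicarboxylic acyl-CoA, was the least abundant member, with 0.0419, 0.0624, 0.0430, 0.0625 and 0.0643 FPKM in the CON libraries and 0.119, 0.268, 0.262, 0.236 and 0.227 FPKM in HG. These values stand for 2, 3, 2, 3 and 3 reads in CON and 6, 13, 12, 11 and 10 reads in HG. The groups did not overlap, although HG replicate 1 was lower than the other HG libraries. The log2FC of 1.04 (SE 0.20) was damped by the pseudocount, and was 0.21 with a pseudocount of 1, 1.81 with 0.01, 1.79 from voom on recovered reads and 2.02 from the ratio of the mean FPKM. The count of members past the DEG threshold was 0 without HG replicate 2 and also 0 with a pseudocount of 1. It was 3, with Lpl, without CON replicate 2, CON replicate 3 or HG replicate 1. Under median-of-ratios scaling or quantile normalization the 1 member past the threshold was Lpl.

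Acot1 and Acot4 are neighbours on chromosome 6, in a row of type I thioesterase genes whose order in the RefSeq annotation of GRCr8 is Acot2, Acot1, Acot4, Acot3 and, further on, Acot6. Each tested gene of the row had a higher mean in HG. Acot2, the mitochondrial form, rose from 10.4 ± 0.274 to 12.6 ± 1.66 FPKM (SD, n = 5 each; log2FC 0.27, adjusted p = 0.0159, limma; 0.18, adjusted p = 0.0966 with median-of-ratios factors). Acot3, a peroxisomal form, rose from 6.22 ± 0.895 to 9.61 ± 0.466 FPKM (0.63, SE 0.089, adjusted p = 0.000187). Acot6 stayed under the filter, at 0.0282 ± 0.0298 FPKM in CON hearts and 0.0858 ± 0.0989 FPKM in HG hearts. Of the 10 listed genes among the 8 RefSeq genes on either side of the row, 0 rose (background 28.4%), 2 fell (background 11.8%) and 8 were not called. The row was picked after its values were seen and the neighbours are few, so that nothing is read from this count. The genes of the row are close copies of each other, so that reads may have been split between them and the values of single genes are uncertain. How the authors counted reads that match several genes was not given in the sources used here.

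**Figure D5:**
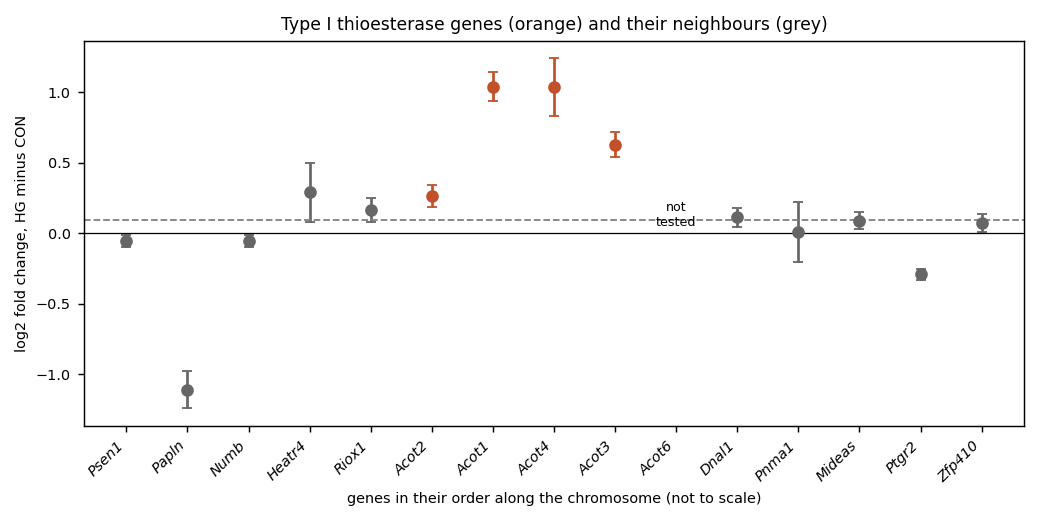
Log2FC of HG minus CON with its standard error of the type I thioesterase genes (orange) and of their listed neighbours on either side (grey), in chromosomal order and not to scale, with the median of all tested genes dashed. Acot1 and Acot4 lie at 1.04, Acot3 at 0.63 and Acot2 at 0.27. The highest neighbour, Heatr4, lies at 0.29 (not called), above Acot2.

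The promoters of Acot1 and Acot4 are shown because both genes were higher in HG, and that of Slc27a1 because it was near equal in both groups and also holds the short motifs that they hold. They are the 250 bases before the annotated start in RefSeq, build GRCr8, printed 5′ to 3′ on the plus strand, which is the gene's strand in each case: chr6:109367024-109367273 for Acot1, chr6:109399604-109399853 for Acot4 and chr16:18312717-18312966 for Slc27a1. Capitals mark each match, on either strand, to CCAAT (the CCAAT box) or AGGTCA (the half-site of nuclear receptors such as PPARα).
Acot1: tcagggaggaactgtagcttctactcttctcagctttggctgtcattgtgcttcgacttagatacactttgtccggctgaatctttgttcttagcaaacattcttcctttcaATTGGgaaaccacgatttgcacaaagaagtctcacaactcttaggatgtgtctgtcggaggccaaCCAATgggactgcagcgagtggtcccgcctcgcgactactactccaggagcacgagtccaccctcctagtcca
Acot4: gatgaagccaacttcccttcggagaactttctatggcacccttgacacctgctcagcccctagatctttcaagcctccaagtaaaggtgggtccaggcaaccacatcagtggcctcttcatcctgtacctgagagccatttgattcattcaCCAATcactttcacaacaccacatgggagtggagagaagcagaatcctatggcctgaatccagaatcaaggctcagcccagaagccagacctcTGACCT
Slc27a1: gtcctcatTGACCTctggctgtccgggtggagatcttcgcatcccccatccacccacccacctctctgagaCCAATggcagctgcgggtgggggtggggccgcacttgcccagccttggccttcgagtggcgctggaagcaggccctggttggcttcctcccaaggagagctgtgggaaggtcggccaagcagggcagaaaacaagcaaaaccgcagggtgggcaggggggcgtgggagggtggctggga
Promoter sequences matched 8 of the 10 members, all but Lpl and Fabp4. CCAAT was found in 4 of them (Slc27a1, Plin5, Acot1 and Acot4), and in 34.0% of all 33469 promoters of this length. AGGTCA was found in 3 (Slc27a1, Plin5 and Acot4) and in 14.1% of all promoters. The tandem of this half-site with 1 base between the copies, the usual response element of PPARα, was found in 0 members and in 0.0508% of all promoters. GGGCGG, the GC box, was in 3 members (Plin2, Plin5 and Pnpla2) and 30.5% of promoters, and TATAAA, the TATA box, in 1 (Cd36) and 12.9%. CCAAT and AGGTCA each occurred in members that were higher in HG and in members whose groups overlapped.

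Outside the row on chromosome 6 the thioesterase family moved both ways. Of the 8 tested genes there, 2 rose (background 28.4%) and 2 fell (background 11.8%). With Acot2 and Acot3 of the row, the list had 10 tested genes, of which 4 rose and 2 fell, or 3 and 3 with median-of-ratios factors. Them6 rose with 0.52 (adjusted p = 0.0164). The cytosolic Acot7 rose from 14.2 ± 0.367 to 19.4 ± 2.41 FPKM (SD, n = 5 each; log2FC 0.45, adjusted p = 0.000615, limma). Acot13, a mitochondria-associated form and the most abundant of the family, fell from 56.4 ± 5.68 to 38.8 ± 3.93 FPKM (-0.54, adjusted p = 0.000235), and Acot11 fell from 8.28 ± 1.09 to 4.17 ± 0.223 FPKM (-0.96, adjusted p = 5.55e-06). The summed FPKM of the 14 listed thioesterases, members included, was 137 ± 6.60 in CON and 127 ± 4.95 in HG. Acot1 made up 1.14 ± 0.158% of this sum in CON and 2.59 ± 0.267% in HG, so that the family total was set by other genes.

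In the KEGG annotation of the deposited table, 7 of the 10 members (Lpl, Cd36, Slc27a1, Fabp3, Fabp4, Plin2 and Plin5) belong to the PPAR signaling pathway. Ppara (NCBI Gene 25747), which encodes the receptor, fell from 10.1, 9.80, 9.41, 10.1 and 7.40 FPKM in CON to 4.97, 4.69, 4.58, 4.71 and 5.85 FPKM in HG. The groups did not overlap (log2FC -0.90, SE 0.095, adjusted p = 2.50e-05, limma). Pparg, the form of adipocytes, fell from 0.791 ± 0.229 to 0.341 ± 0.0855 FPKM (-0.99, adjusted p = 0.00349), and Klf15, a cardiac regulator of lipid use, fell with -0.57 (adjusted p = 0.000183). The coactivator gene Ppargc1a had -0.10 (SE 0.072, adjusted p = 0.272), and -0.19 (adjusted p = 0.0375) with median-of-ratios factors. Of 17 regulators tested, 6 fell (background 11.8%) and 1 rose (background 28.4%). The riser was the corepressor gene Ncor1 (0.16, adjusted p = 0.0272), which with median-of-ratios factors had 0.07 (adjusted p = 0.294).

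Known targets of PPARα outside the members moved in both directions, with 6 of 23 tested genes rising (background 28.4%) and 10 falling (background 11.8%). With median-of-ratios factors 4 of them rose and 12 fell, while over all genes 2289 rose and 2545 fell. Besides Angptl4, Pdk4, the kinase that shuts pyruvate out of the mitochondrion, rose from 9.20 ± 1.08 to 14.1 ± 1.30 FPKM (SD, n = 5 each; log2FC 0.61, adjusted p = 0.000166, limma) and Ucp2, a mitochondrial carrier, rose from 146 ± 7.51 to 192 ± 13.2 FPKM (0.39, adjusted p = 9.86e-05). Cpt1b, the muscle gate of fatty acid entry into mitochondria, fell with -0.30 (adjusted p = 5.09e-05), and Acaa2 and Acadm, enzymes of β-oxidation, fell with -0.52 (adjusted p = 0.000249) and -0.37 (adjusted p = 0.000628). Over the union of the 8 pathway lists, 103 genes were tested outside the members, of which 22 rose and 34 fell (54.4% called, against 40.1% of all genes). With median-of-ratios factors 14 rose and 44 fell.

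By level, the members kept nearly the same order in both groups. On the FPKM scale, which accounts for gene length, the order in CON was Fabp3, Fabp4, Lpl, Plin2, Pnpla2, Cd36, Slc27a1, Acot1, Plin5 and Acot4, and only Acot1 and Plin5 overlapped as neighbours. In HG, Lpl stood behind Plin2 and overlapped Pnpla2, Cd36 overlapped Slc27a1, and Acot1 stood apart above Plin5.

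Several of these genes are expressed in cells other than cardiomyocytes, so summed FPKM of marker lists, without the members, were compared between the groups (7 lists, two-sided exact permutation tests, p adjusted over the lists). The smallest p of 5 libraries against 5 is 0.00794. The summed FPKM of 15 cardiomyocyte markers was high throughout, from 34879 to 36704 in CON and 29530 to 33961 in HG (exact permutation p = 0.00794, adjusted p = 0.0185), with 11 genes lower and 1 higher. Capillary endothelial markers, cells that hold Gpihbp1 and Fabp4, summed to 540–587 FPKM in CON and 516–587 FPKM in HG (15 genes, exact permutation p = 0.50), with 4 genes lower and 3 higher. The lower genes were Gpihbp1, Rgcc (log2FC -0.81), Meox2 (-0.56) and Aqp1 (-0.33). The higher genes were Emcn (0.29), Tie1 (0.20) and Esam (0.13). With median-of-ratios factors the difference of the summed FPKM was -46.4 FPKM (exact permutation p = 0.0397).

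Of the adipocyte markers, Adipoq, Cidec and Retn were under 0.1 FPKM in every library. Cfd, of the same list, averaged 1.08 FPKM in CON and 1.16 FPKM in HG (log2FC 0.03, adjusted p = 0.920, limma). The list summed to 30.0–37.9 FPKM in CON and 23.5–27.3 FPKM in HG (10 listed genes, 0 higher and 4 lower of 5 tested, exact permutation p = 0.00794, adjusted p = 0.0185). Those 4 were Lipe, Pparg, Cidea and Dgat2, described above. Most of the sum came from Cidea (15.8 FPKM in CON and 10.5 FPKM in HG) and Dgat2 (12.1 and 10.4 FPKM). Hepatocyte markers summed to 3.15–9.27 FPKM in 4 CON libraries and 87.5 FPKM in CON replicate 3, against 1.55–2.71 FPKM in HG (11 listed genes, 5 lower, exact permutation p = 0.00794, adjusted p = 0.0185). Without CON replicate 3, the same 6 members had an adjusted p under 0.05. Red cell markers summed to 10583–20000 FPKM in CON libraries and 8340–11688 FPKM in HG libraries (15 genes, 10 lower and 2 higher, exact permutation p = 0.0238, adjusted p = 0.0333). Fibroblast markers were at 1762–2053 and 1586–1821 FPKM (10 genes, 5 lower and 2 higher, exact permutation p = 0.0159, adjusted p = 0.0278). Macrophage markers were at 52.1–67.2 and 63.0–76.5 FPKM (13 genes, 1 lower and 3 higher, exact permutation p = 0.0794, adjusted p = 0.0926). Their part in the members' values was not tested.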

How the data were processed

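Fetal hearts of 5 CON and 5 HG libraries were profiled by stranded poly(A) RNA sequencing. The authors deposited FPKM, which they made from read numbers per gene divided by gene length and library size. The submitters' processing notes name fastp, HISAT2, HTSeq, R 3.2.0 and the build mRatBN7.2. All per-sample columns were used (0 unused), and the table holds no comparisons of the authors. The smallest step between FPKM values was taken as 1 read, which gave whole reads within 0.03 for 100% of genes.

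The members and gene lists were chosen with earlier results of these data known. The log2(FPKM + 0.1) of genes that averaged 0.1 FPKM or more was fitted with limma 3.58.1 (R 4.3.3, trend on expression, no covariate, Benjamini-Hochberg adjustment over 14542 genes). DESeq, named in the study's methods, takes counts and was not run, also not on the recovered reads. For a DEG, the adjusted p was under 0.05 and log2FC, the log2 fold change, was beyond 1 in either direction. For marker sums, exact permutation tests were run on both sides (scipy 1.17.1). Named outside the members were, per pathway list, the 3 genes with the largest change in each direction among those with an adjusted p under 0.05, and 21 well known partners. Acot6 and the chromosomal neighbours were singled out for their position. The row of thioesterases, the KEGG and Gene Ontology groups and the family shares were added after the values were seen. The model was checked on simulated data. Promoters came from RefSeq (GRCr8). Python 3.11.15, numpy 2.4.6, pandas 2.3.3 and matplotlib 3.10.9 were used. As alternatives, the pseudocount was set to 1 or 0.01, the filter dropped or raised to 1 FPKM, libraries rescaled by median-of-ratios factors, by quantiles or without hemoglobin genes, and the trend dropped. Array weights, a replicate block, fold changes of mean FPKM, voom on recovered reads, and fits that left out 1 library each were also run.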

Additional observations from a re-analysis of the deposited data

Results flagged for a closer look

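Among 128 groups of 5 libraries examined (members, named genes and marker sums), 9 had 1 library whose gap to the nearest other exceeded Dixon's critical value of 0.71 of the group's range, a rule that chance meets in about 1 of 20 groups. Of the members, Cd36 was at 16.9 FPKM in CON replicate 2, against 7.46 to 8.45 FPKM in the other CON libraries, and Acot4 was at 0.119 FPKM in HG replicate 1, against 0.227 to 0.268 FPKM in the other HG libraries. CON replicate 2 was also the highest CON library for Angptl4, at 0.696 FPKM against 0.429 to 0.485 FPKM. CON replicate 5 was high for Acot11 (10.2 FPKM, others up to 8.14 FPKM) and low for Ppara (7.40 FPKM, others from 9.41 FPKM). The remaining single libraries were HG replicate 2 for Fitm2 (6.01 FPKM, others up to 4.89 FPKM), CON replicate 1 for Got2 (379 FPKM, others up to 349 FPKM) and HG replicate 1 for Slc27a3 (6.003 FPKM, others up to 4.83 FPKM). The summed hepatocyte markers were at 87.5 FPKM in CON replicate 3, against 3.15 to 9.27 FPKM in the other CON libraries. The cause of these gaps was not tested.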

How the results depend on the processing

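Over 12 alternatives, the count of all genes with an adjusted p under 0.05 lay between 4834 and 6159, that of members between 5 and 6, that of pathway genes outside the members between 49 and 58, and the median log2 fold change of the members between -0.46 and -0.31. With each library left out in turn, the ranges were 5059 to 5627 genes, 5 to 6 members, 48 to 55 pathway genes and a median of -0.40 to -0.27. Acot4 was under the filter at a mean of 1 FPKM. Of the marker sums, capillary endothelial markers passed the threshold with median-of-ratios factors (difference -46.4 FPKM), and the difference of macrophage markers was 6.23 to 10.9 FPKM with 1 library left out, with an exact permutation p of 0.0476 without HG replicate 1. For the named genes outside the members, 25 of 560 alternative fits lost a call and 9 gained one, in 8 and 3 genes, and 0 changed sign with a call. Both groups carry replicate numbers 1 to 5, but same-numbered libraries deviated together in only 1 of 5 pairs (correlations -0.13 to 0.11, above 0.1 in 1), so that the numbers were not taken as pairs. With the replicate number as a block, 5096 genes, 5 members (without Pnpla2, which was also lost with no trend) and 49 pathway genes had an adjusted p under 0.05, and Plin4 did not (adjusted p = 0.0609). Depth limited Acot4 (2 to 13 reads per library), and also Slc27a6 (1 to 19), Apoc1 (8 to 21), Pparg (10 to 44), Plin4 (14 to 78) and Plin5 (15 to 90).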

Other observations

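Groups of lipid genes that the deposited annotation defines, chosen after the values were seen and counted without the members, held genes of both directions. Of 53 tested genes of the KEGG PPAR signaling pathway, 9 were higher and 16 lower in HG with an adjusted p under 0.05 (47.2%, against 40.1% of all genes tested, limma). Of all genes tested, 28.4% were higher and 11.8% lower. Biosynthesis of unsaturated fatty acids, which holds Acot1 and Acot4, had 10 higher and 4 lower of 26 (53.8%). Fatty acid elongation, which holds the same 2 members, had 9 higher and 7 lower of 25 (64.0%). Regulation of lipolysis in adipocytes had 9 higher and 11 lower of 44 (45.5%), and glycerolipid metabolism 11 higher and 10 lower of 52 (40.4%). Insulin resistance had 27 higher and 12 lower of 94 (41.5%). Of Gene Ontology terms, fatty acid metabolic process had 12 higher and 18 lower of 55 (54.5%). Lipid storage had 2 higher and 7 lower of 22 (40.9%), and lipid droplet 23 higher and 17 lower of 75 (53.3%). Long-chain fatty acid transport had 3 higher and 3 lower of 11 (54.5%). Long-chain fatty acid metabolic process had 5 higher and 4 lower of 16 (56.2%). Next to the thioesterase row, Papln, a matrix protein gene singled out after its value was seen, was lower in HG, at 0.776 ± 0.143 FPKM against 1.78 ± 0.234 FPKM (SD, n = 5 each; log2FC -1.11, adjusted p = 6.24e-05), and Ptgr2, a prostaglandin reductase gene, was lower with -0.29 (adjusted p = 9.22e-05).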
